A study of Equus caballus with 68 samples.

Results

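Bone marrow mononuclear cells (BMNC) of horses were cultured in the animals' own synovial fluid, and the comparison described here follows the cells in inflamed synovial fluid (ISF) from day 6 to day 10. It holds 15 of the 68 libraries of the series, namely the 8 libraries made after 6 days in ISF and the 7 made after 10 days, taken by the fluid and time that their labels give. Of these, 14 come from the 7 horses with both time points, and the horse named Flash has a 6 day library only. The animals were 8 Thoroughbreds of 3 to 9 years with no joint disease, 6 geldings and 2 mares, and each library is 1 well of cells from 1 horse, so the 2 time points of a horse are separate wells. The cells were the mononuclear fraction of sternal marrow, separated on a density gradient and not sorted further. ISF came from radiocarpal joints of the same horse 8 hours after lipopolysaccharide, a bacterial cell wall component that sets off innate immunity, had been injected into them, and the control cultures stood in fluid from the healthy middle carpal joints of the same horse (SF, 8 libraries at 6 days and 7 at 10 days). Both fluids were freed of cells, used undiluted and topped up every 48 hours.

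Marrow mononuclear cells hold stem cells, dividing precursors of every blood lineage, monocytes and lymphocytes. In culture, monocytes and their precursors attach and become macrophages, the long-lived phagocytes that clear debris from joints, whereas neutrophil precursors fill their granules in a fixed order (primary granules at the promyelocyte stage, secondary granules later), stop dividing and live only for days. Cells that divide carry the transcripts of the replication and mitosis machinery, which cells at rest lack. A library of mixed cells therefore reads both the makeup of the culture and the state of its cells, and fewer cells of a type cannot be told apart here from less RNA per cell.

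All values are GeTMM, which are read counts divided by the length of the gene and then brought to a common library scale, and all changes are log2 fold changes of GeTMM + 1, 10 days minus 6 days, from limma with a term for the horse. The depth was 20.8 to 27.4 M reads on genes at 6 days and 18.8 to 25.5 M at 10 days, and 1 read on a gene of 1 kilobase was worth 0.047 to 0.0734 GeTMM, so values near that level rest on single reads. By a profile of 200 genes that tell the horses apart, each of the 15 libraries was closest to the other libraries of its own horse. The defining macrophage markers CD68, CD163, MRC1, GPNMB, SPP1, TREM2 and MSR1 were all present, with a summed level of at least 14661 GeTMM in each library at 6 days and of at least 47200 at 10 days. Markers of red cell precursors were low, since ALAS2, GATA1, KLF1 and AHSP together reached at most 1.41 GeTMM at 6 days and 1.32 at 10 days. In 2 libraries the stromal markers COL1A1, COL1A2, COL3A1, DCN and LUM stood apart, with a sum of 68.1 GeTMM in Ollie at 6 days (next highest 10.9) and of 49.2 in Moon at 10 days (next highest 1.98). Among the SF libraries, which share the estimate of the spread, that of Moon at 6 days stood apart, with a mean log2(GeTMM + 1) of 11.79 over 52 ribosomal protein genes against 9.29 to 10.1 in the other 7. The part of these transcripts in the results was not tested, and only some values are also given without each library. Without this SF library of Moon, counts of other lists changed too. For example, 16 genes of DNA repair (12 with it) and 39 of DNA replication (34 with it) were called lower, while the mitosis count stayed at 58.

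From 6 to 10 days, 2117 of 14570 genes tested (14.5%) changed at a false discovery rate (FDR) under 0.05. Of these, 1013 (6.95% of the genes tested) rose and 1104 (7.58%) fell. The falls were the larger changes: 348 genes fell by at least 1 log2 unit and 55 by at least 2, against 214 and 19 genes that rose by as much. The median change over all genes tested was 0.005. The 32 gene lists were chosen with earlier results of these data known, so their shares of calls are no independent support. Those with the lowest median changes held the granule proteins of neutrophil precursors and the machinery of cell division. Members of the lists for Fc receptor signaling and actin and for T cells fell as well. Among the genes that rose were CRABP2, CAMK2N1, CD9, MMP12, MMP9, the cell cycle inhibitors CDKN1A and CDKN2A, the osteoclast genes CTSK and ITGB3 and stress genes of the endoplasmic reticulum. None of the 18 macrophage identity genes tested was called by limma (4 had an unadjusted p under 0.05, and none was called by voom on the reads recovered from the table). Without the horse Ollie, 1416 genes were called, 628 of them higher and 788 lower, and without Moon 3150 (1596 higher). Leaving out only the 6 day SF library of Moon gave 3153 (1546 higher), only the 10 day ISF library of Moon 2268 and only the 6 day ISF library of Ollie 2119.

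**Figure D1:**
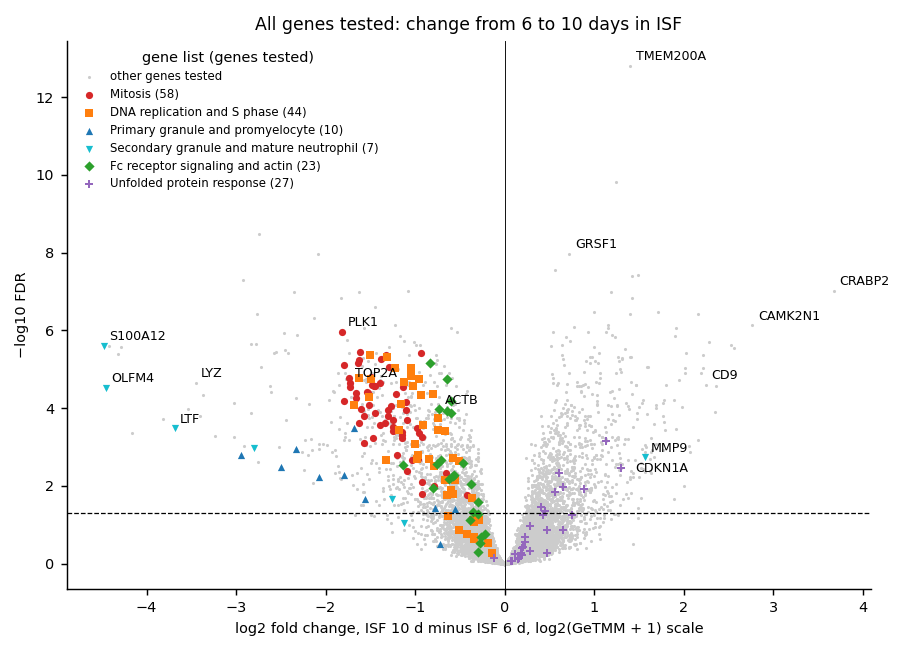
Change of each of 14570 genes from 6 to 10 days in ISF (x axis, log2 fold change on the log2(GeTMM + 1) scale) against its -log10 FDR (y axis, dashed line at an FDR of 0.05), with 6 gene lists in colour and other genes in grey. All 58 mitosis genes lie to the left of 0 and above the line, S100A12 and OLFM4 lie farthest left at -4.48 and -4.46, and CRABP2 lies farthest right at 3.68.

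Most genes of cell division fell. Each of the 58 mitosis genes tested was called lower at 10 days, with a median log2 fold change of -1.31, and of 44 genes of DNA replication and S phase 34 were called lower and none higher, with a median of -0.79. The mean of the mitosis list over log2(GeTMM + 1) values ranged from 3.22 (Dreamer) to 4.41 (Dealings) over the 8 libraries at 6 days. At 10 days it ranged from 2.23 (Catnip) to 3.04 (Dealings) in 6 of the 7 libraries and was 4.23 in Moon. Except for Moon, all libraries at 10 days were thus below all libraries at 6 days. The fall within these 6 horses was 0.92 to 2.08, and all 58 genes were lower at 10 days in each of them. In Moon the mean went from 4.32 to 4.23, and 39 of the 58 genes were lower.

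TOP2A, whose product topoisomerase II alpha untangles DNA before mitosis, was lower at 10 days in all 7 horses. It ranged from 13.2 (Dreamer) to 43.2 (Dealings) with a median of 32.8 at 6 days and from 4.95 (Ollie) to 30.7 (Moon) with a median of 8.10 at 10 days (log2 fold change -1.73 ± 0.30 (SE), FDR = 2.2e-05), and the second highest library at 10 days stood at 10.4 (Dealings). CCNB1, the cyclin that drives entry into mitosis, ranged from 20.2 (Dreamer) to 54.3 (Catnip) with a median of 46.3 at 6 days and from 5.86 (Catnip) to 47.5 (Moon) with a median of 9.80 at 10 days (log2 fold change -1.74 ± 0.29 (SE), FDR = 1.7e-05). Moon again stood apart at 10 days, since the other 6 libraries lay between 5.86 and 15.4 GeTMM, below every library at 6 days. The partner kinase of this cyclin, CDK1, ranged from 27.9 (Dreamer) to 60.1 (Catnip) with a median of 47.0 at 6 days and from 9.05 (Ollie) to 58.0 (Moon) with a median of 19.6 at 10 days (log2 fold change -1.21 ± 0.22 (SE), FDR = 4.4e-05). PLK1, a kinase that readies the spindle, had the lowest fold change of the mitosis list and ranged from 10.7 (Dreamer) to 27.0 (Catnip) with a median of 20.5 at 6 days and from 2.81 (Ollie) to 19.5 (Moon) with a median of 4.13 at 10 days (log2 fold change -1.82 ± 0.26 (SE), FDR = 1.1e-06). CDC20, which activates the complex that ends mitosis, fell from 18.3 ± 5.94 GeTMM (SD, n = 8) at 6 days to 5.34 ± 4.64 GeTMM (SD, n = 7) at 10 days (-1.80, FDR = 7.9e-06), and the spindle factor TPX2 from 39.8 ± 10.6 GeTMM (SD, n = 8) at 6 days to 14 ± 12.8 GeTMM (SD, n = 7) at 10 days (-1.73, FDR = 2.9e-05). UBE2C, the ubiquitin carrier of that complex and the most abundant of these genes, fell from 247 ± 59.2 GeTMM (SD, n = 8) at 6 days to 86.5 ± 49.6 GeTMM (SD, n = 7) at 10 days (-1.67, FDR = 4e-05).

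Among the replication genes, the subunits of the MCM helicase, the ring that opens DNA at origins, fell together. MCM2 ranged from 18.7 (Dreamer) to 38.5 (Dealings) with a median of 27.8 at 6 days and from 5.76 (Ollie) to 22.4 (Moon) with a median of 10.2 at 10 days (log2 fold change -1.32 ± 0.20 (SE), FDR = 4.9e-06), and without Moon all libraries at 10 days were below all at 6 days. MCM5 had a log2 fold change of -1.51 and MCM6 one of -0.94. TK1, the thymidine kinase that supplies a DNA building block in S phase, ranged from 71.3 (Dreamer) to 168 (RimRun) with a median of 141 at 6 days and from 19.1 (Ollie) to 100.4 (Moon) with a median of 40.3 at 10 days (log2 fold change -1.63 ± 0.27 (SE), FDR = 1.7e-05). UHRF1, which hands DNA methylation to the new strand, had the lowest fold change of this list (-1.69, FDR = 8.1e-05), followed by TK1 and CDC45, the partner of the helicase (-1.51, FDR = 5.1e-05). RRM2, the inducible subunit of ribonucleotide reductase, fell from 45.0 ± 14.7 GeTMM (SD, n = 8) at 6 days to 20.1 ± 13.8 GeTMM (SD, n = 7) at 10 days (-1.33, FDR = 0.0022). PCNA, the sliding clamp, which also serves DNA repair outside S phase, fell from 81.2 ± 17.7 GeTMM (SD, n = 8) at 6 days to 53.2 ± 19.8 GeTMM (SD, n = 7) at 10 days (-0.66, FDR = 0.007). Of 19 genes of DNA repair by homologous recombination, a pathway that works on newly copied DNA, 12 were called lower and none higher (median -0.53), among them FANCD2 (-1.38, FDR = 1.5e-05), EXO1 (-1.27, FDR = 2.2e-05) and BRCA1 (-0.85, FDR = 0.0089).

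The transcription factors and cyclins that set the cell cycle in motion fell in part. Of 16 tested, 8 were called lower and none higher (median -0.58). MYBL2 and FOXM1, which switch on the mitosis genes, had log2 fold changes of -1.53 and -1.39. FOXM1 was 5.96 GeTMM in Moon at both times, and in the other 6 horses it went from between 2.43 and 8.13 to between 0.531 and 2.3. E2F7 (-1.0, FDR = 0.0064), E2F2 (-0.93, FDR = 0.0037) and the G1 cyclins CCND3 (-0.89, FDR = 2.2e-05) and CCND2 (-0.63, FDR = 0.032) also fell. The activator E2F1 (-0.53, FDR = 0.24) and the G1 kinase CDK4 (-0.26, FDR = 0.063) did not pass the test.

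Inhibitors of the cell cycle went in both directions. Of 20 inhibitors and p53 target genes, 4 were called higher (CDKN1A, CDKN2A, PHLDA3 and CDKN2B) and 2 lower (CDKN2C and CDKN2D). Together these calls are 30% of the list, against 14.5% of all genes tested. CDKN1A, which encodes the p21 inhibitor of cyclin-dependent kinases, ranged from 27.7 (Catnip) to 79.0 (RimRun) with a median of 50.3 at 6 days and from 77.6 (Dreamer) to 235 (Dealings) with a median of 155 at 10 days (log2 fold change 1.40 ± 0.37 (SE), FDR = 0.0059). It was higher at 10 days in all 7 horses, by the least in Moon, where it went from 75.8 to 79.4 GeTMM. CDKN2A, the locus of the p16 inhibitor, ranged from 1.54 (Moon) to 4.22 (Catnip) with a median of 3.10 at 6 days and from 3.58 (Catnip) to 18.2 (Ollie) with a median of 10.3 at 10 days (log2 fold change 1.30 ± 0.21 (SE), FDR = 1.2e-05). It was higher in 6 of 7 horses and lower in Catnip, and without Catnip the 10 day libraries lay above all 6 day libraries. PHLDA3, a p53 target that restrains AKT signaling, rose from 6.94 ± 4.56 GeTMM (SD, n = 8) at 6 days to 17.8 ± 10.1 GeTMM (SD, n = 7) at 10 days (1.20, FDR = 0.0021), and CDKN2B, the p15 inhibitor, from 48.1 ± 17.4 GeTMM (SD, n = 8) at 6 days to 72.9 ± 26.5 GeTMM (SD, n = 7) at 10 days (0.60, FDR = 0.041). CDKN2C, which encodes the p18 inhibitor, was lower in all 7 horses, and ranged from 6.04 (Dreamer) to 19.5 (Dealings) with a median of 14.6 at 6 days and from 2.13 (Ollie) to 13.1 (Moon) with a median of 3.03 at 10 days (log2 fold change -1.52 ± 0.24 (SE), FDR = 6.2e-06).

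**Figure D2:**
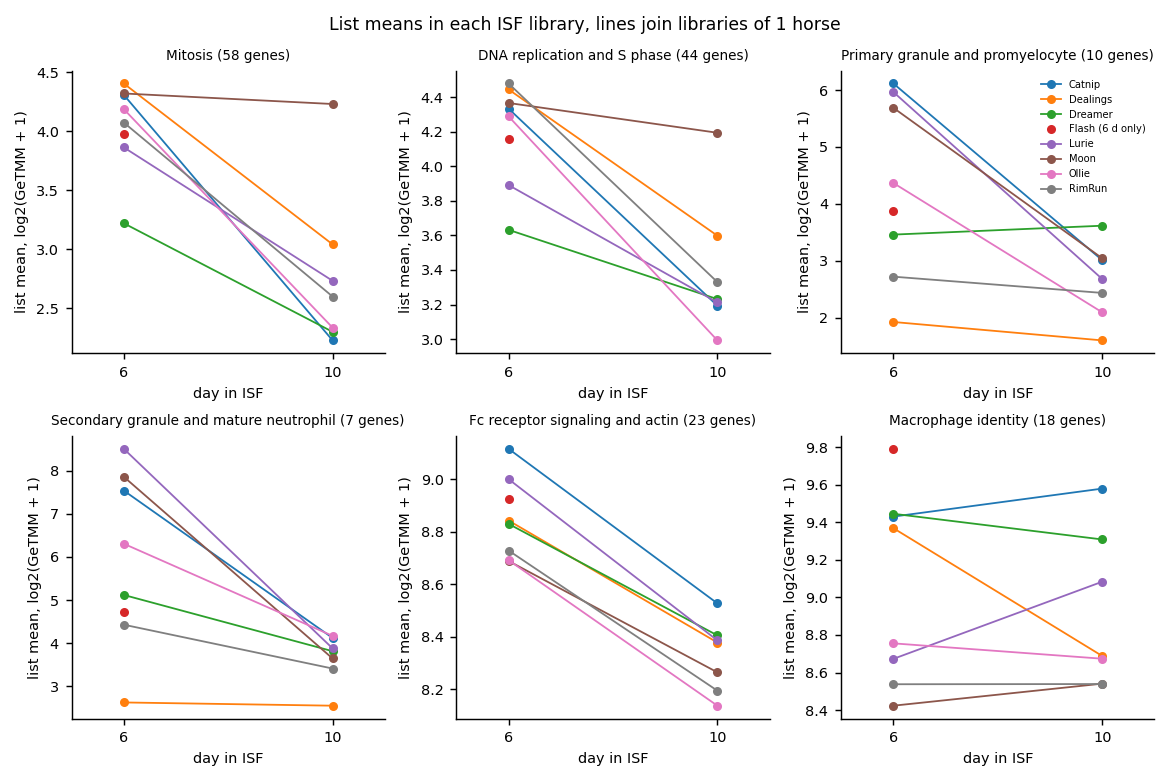
Mean log2(GeTMM + 1) of 6 gene lists (y axes) in each ISF library at 6 and 10 days (x axes), with 1 colour and 1 line per horse and no error bars since each point is 1 library. The mitosis mean fell by 0.92 to 2.08 in 6 horses and from 4.32 to 4.23 in Moon, the granule means at 6 days differed widely between horses, and the Fc receptor and actin mean fell in all 7 horses.

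Over the whole culture, the mitosis mean was 4.32 ± 0.34 (SD over 8 horses) in the fresh cells. In ISF it was 4.22 ± 0.43 after 48 hours (7 horses), 4.14 ± 0.33 after 96 hours (8 horses), 4.05 ± 0.38 after 6 days (8 horses) and 2.78 ± 0.70 after 10 days (7 horses). The steps before day 6 were thus smaller than the spread between horses, and the last was larger. In SF the mean was 3.90 ± 0.27, 3.44 ± 0.46, 3.16 ± 0.66 and 2.86 ± 0.62 at the same 4 times, so at 10 days the means in the 2 fluids differed by less than the SD in either. The median log2 fold change of the 58 genes from 6 to 10 days was -0.35 in SF, against -1.31 in ISF. The test of the difference between the 2 changes, at an FDR under 0.05, called 270 of all genes tested (1.85%). Over all genes, 2607 had an unadjusted p under 0.05. Of the mitosis genes it called 7 (PLK1, CENPA, CENPF, CEP55, KIF20A, KIF2C and CDC25C) and of the replication genes 7 (MCM2, MCM3, MCM4, MCM5, MCM6, POLA2 and DNMT1), all with the lower change in ISF and named here because this test called them. For CENPA, the histone variant that marks centromeres, the change was -1.32 in ISF and 0.10 in SF (difference -1.42, FDR = 0.0075), and for MCM2 it was -1.32 and -0.06 (difference -1.25, FDR = 0.016). These calls depend on single horses. Over all genes, 5 were called without Ollie, 89 to 117 without any 1 of Catnip, Dealings, Dreamer, Flash, Lurie or RimRun, 647 without Moon, 828 without the 10 day ISF library of Moon and 380 without its 6 day SF library, and 33 were called without the term for the horse.

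**Figure D3:**
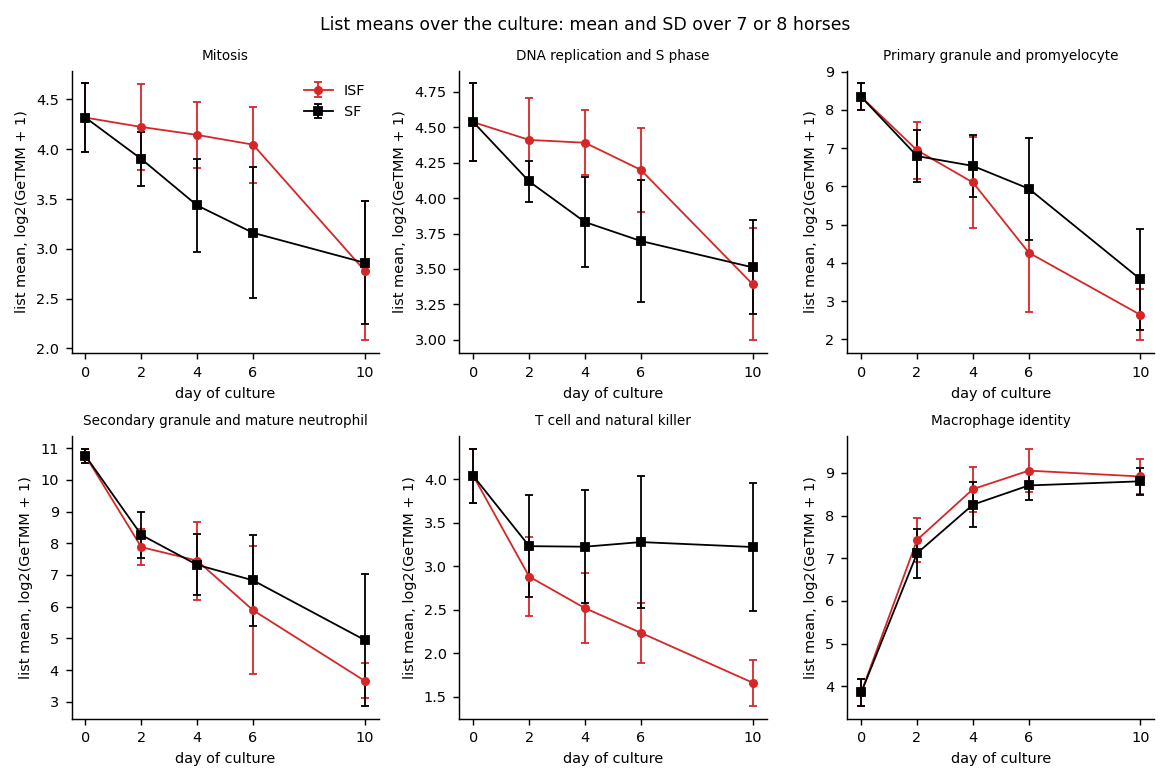
Mean log2(GeTMM + 1) of 6 gene lists (y axes) over the days of culture (x axes) in ISF (red circles) and SF (black squares), with the SD over 7 or 8 horses as bars and the shared start at 0 hours. In ISF the mitosis mean stayed between 4.05 and 4.32 up to 6 days and was 2.78 at 10 days, while in SF it stepped down to 3.16 at 6 days and 2.86 at 10 days.

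Transcripts of the 2 lists for neutrophil granules and their precursors fell in most horses. Which cells carried them was not tested. Of the 15 genes with the lowest fold change among those that fell in all 7 horses, 6 are on the 2 granule lists (S100A12, OLFM4, LTF, BPI, LCN2 and MS4A3). The other 9 were RETN, LYZ, ALPL, ECATH-3, the hexokinase HK3, the glutathione transferase MGST1 (-2.58, FDR = 3.8e-06), the potassium channel KCNJ15 (-2.47, FDR = 1.2e-06), PLAC8A (-2.73, FDR = 8.9e-06) and GAPT (-2.61, FDR = 3.8e-05). Of 10 genes on the list for primary granules and promyelocytes, 9 were called lower (median -1.74), and of 7 genes on the list for secondary granules and mature neutrophils 5 were called lower and 1, MMP9, higher (median -2.80). The horses differed far more at 6 days than at 10 days. The mean of the secondary granule list ranged from 2.63 (Dealings) to 8.51 (Lurie) at 6 days and from 2.55 (Dealings) to 4.17 (Ollie) at 10 days. The mean of the primary granule list ranged from 1.92 (Dealings) to 6.12 (Catnip) and then from 1.60 (Dealings) to 3.62 (Dreamer).

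S100A12, a calcium-binding alarmin, ranged from 9.13 (Dealings) to 5068 (Lurie) with a median of 488 at 6 days. At 10 days it ranged from 4.19 (Dealings) to 60.5 (Moon) with a median of 23.0 (log2 fold change -4.48 ± 0.67 (SE), FDR = 2.5e-06). Its level was lower at 10 days in each of the 7 horses, and the groups overlap only through Dealings, which was already at 9.13 at 6 days. Lactoferrin, LTF, the iron-binding protein of secondary granules, ranged from 0.836 (Dealings) to 1245 (Lurie) with a median of 76.9 at 6 days and from 0.0257 (RimRun) to 16.7 (Catnip) with a median of 9.53 at 10 days (log2 fold change -3.68 ± 0.76 (SE), FDR = 0.00033). OLFM4, the olfactomedin of a subset of neutrophils, ranged from 0.893 (Dealings) to 959.6 (Lurie) with a median of 51.9 at 6 days and from 0 (Dealings) to 2.20 (Lurie) with a median of 1.63 at 10 days (log2 fold change -4.46 ± 0.78 (SE), FDR = 3e-05). In 5 of the 8 libraries OLFM4 was above 15 GeTMM at 6 days and in none at 10 days. LYZ, the lysozyme that neutrophils and macrophages share, ranged from 24.3 (Dealings) to 4809 (Moon) with a median of 509 at 6 days and from 10.8 (Dealings) to 249.7 (Moon) with a median of 57.7 at 10 days (log2 fold change -3.45 ± 0.59 (SE), FDR = 2.2e-05). RETN, which encodes the secreted peptide resistin (-4.42, FDR = 2.5e-06), BPI, which binds bacterial lipopolysaccharide (-2.95, FDR = 0.0016), LCN2, a binder of bacterial siderophores (-2.80, FDR = 0.001), the cathelicidin ECATH-3 (-2.63, FDR = 2.6e-05), MS4A3, a membrane protein of granulocyte progenitors (-2.50, FDR = 0.0032), and ALPL, alkaline phosphatase (-2.76, FDR = 3.8e-07), fell in all 7 horses too. CSF3R, the receptor for granulocyte colony-stimulating factor, fell from 40.5 ± 32.6 GeTMM (SD, n = 8) at 6 days to 15.3 ± 9.60 GeTMM (SD, n = 7) at 10 days (-1.26, FDR = 0.021).

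Genes of the promyelocyte stage were less uniform. MPO, myeloperoxidase, ranged from 0.158 (Dealings) to 46.3 (Catnip) with a median of 18.1 at 6 days and from 0.0708 (Dealings) to 19.7 (Dreamer) with a median of 8.09 at 10 days (log2 fold change -1.56 ± 0.49 (SE), FDR = 0.022), and it was higher at 10 days in 2 of 7 horses, Dreamer (13.4 to 19.7) and RimRun (7.11 to 8.85). ELANE, neutrophil elastase, ranged from 0 (Dealings) to 98.8 (Catnip) with a median of 26.1 at 6 days and from 0.241 (Dealings) to 7.37 (Dreamer) with a median of 3.96 at 10 days (log2 fold change -2.07 ± 0.55 (SE), FDR = 0.0059), and AZU1, azurocidin, ranged from 0.148 (Dealings) to 111 (Catnip) with a median of 28.1 at 6 days and from 0 (Dealings) to 19.7 (Dreamer) with a median of 4.26 at 10 days (log2 fold change -2.34 ± 0.53 (SE), FDR = 0.0011). In Dreamer all 3 enzymes were higher at 10 days than at 6 days, and in Dealings the highest of their values was 0.241 GeTMM (ELANE at 10 days). The exact permutation test that flips the sign of each horse's change, two-sided over 7 horses, gave p = 0.109 for MPO, 0.0625 for ELANE and 0.0469 for AZU1 (adjusted over the 211 named genes 0.139, 0.0897 and 0.0717). LTF and S100A12 are among the genes picked for falling in all 7 horses. They have 0.0156, the smallest p that 7 horses allow, by that choice, so the test draws no contrast with them. The adjusted values also depend on such genes among the 211. CEBPE, the transcription factor of late granulocyte maturation, fell in 6 of 7 horses (-1.80, FDR = 0.0053). Fitted with limma on the 14 paired libraries alone, none of the 10 primary granule genes was called (8 had an unadjusted p under 0.05), and 4 were called without the term for the horse and 5 without Lurie, whereas of the secondary granule genes 4 or more were called lower under each of these settings. SERPINB10, a serpin first found in marrow, was the only member of the primary granule list that was not called, and its mean went from 2062 ± 1519 GeTMM (SD, n = 8) at 6 days to 1178 ± 768 GeTMM (SD, n = 7) at 10 days (-0.72, FDR = 0.31).

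In SF the changes of the granule genes over the same interval had a median of -2.66 for the primary and -2.26 for the secondary granule list. Here limma called a different change in the 2 fluids for no member of either list (unadjusted p under 0.05 for 3 of the 10 and 1 of the 7, and no call by voom). The mean of the primary granule list in ISF went from 4.27 ± 1.56 (SD, n = 8) to 2.64 ± 0.67 (n = 7), and in SF from 5.94 ± 1.33 (n = 8) to 3.57 ± 1.31 (n = 7), from a start of 8.34 ± 0.35 at 0 hours. The part of the granulocyte precursors in the fall of the mitosis genes was not tested. The primary granule mean changed by -3.11 in Catnip, -3.29 in Lurie, -2.27 in Ollie, -0.29 in RimRun and 0.16 in Dreamer. The mitosis mean changed by -2.08, -1.13, -1.85, -1.48 and -0.92 in these horses, in the same order. In Dealings, with the lowest granule means at 6 days, the mitosis mean went from 4.41 to 3.04. In Moon the primary granule mean went from 5.69 to 3.04 and S100A12 from 4356 to 60.5 GeTMM, while the mitosis mean moved by 0.09.

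**Figure D4:**
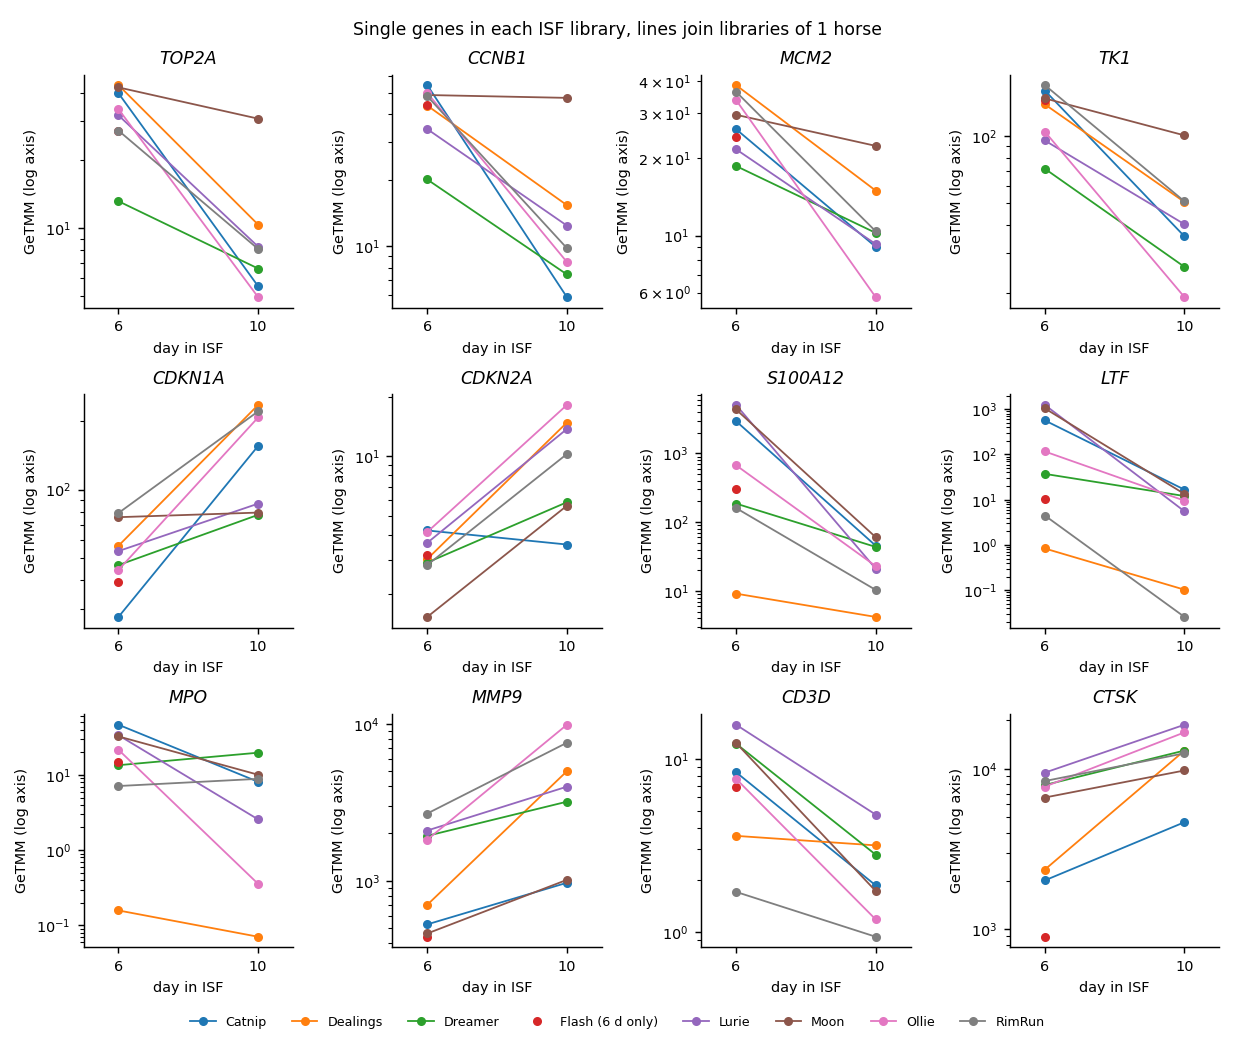
GeTMM (y axes, log scale) of 12 genes in each ISF library at 6 and 10 days (x axes), with 1 colour and 1 line per horse. TOP2A, CCNB1, MCM2 and TK1 fell in 7 of 7 horses and least in Moon, S100A12 fell from a span of 9.13 to 5068 to one of 4.19 to 60.5, and MPO rose in Dreamer and RimRun.

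Transcripts of T cells fell as well. Of 22 T and natural killer cell genes, 9 were called lower and none higher (40.9%, against 14.5% of all genes tested). Their median was -0.41, and -1.02 with a pseudocount of 0.1. With voom 12 were called and the median was -1.20. The T cell receptor chains CD3G (-1.40, FDR = 3.1e-05), CD3D (-1.36, FDR = 0.00065) and CD3E (-1.26, FDR = 0.00025) had the lowest fold changes, with the granzyme GZMK (-1.14, FDR = 0.00054) and the kinase LCK (-1.04, FDR = 0.0018). CD3D ranged from 1.70 (RimRun) to 15.8 (Lurie) with a median of 8.02 at 6 days and from 0.936 (RimRun) to 4.76 (Lurie) with a median of 1.85 at 10 days. It was lower in all 7 horses, by the least in Dealings. The T cell list had a median of 0.03 in SF, and limma called a different change in the 2 fluids for no member (9 of 22 had an unadjusted p under 0.05, and voom called 4). CD4 and CD28, which were well above the CD3 chains at 257 and 224 GeTMM at 6 days, did not pass the test (-0.26, FDR = 0.63 and -0.31, FDR = 0.6). Of 13 B and plasma cell genes 1 was called (7.69%, below the share over all genes). This was the adaptor BLNK, which macrophages also express (0.57, FDR = 0.0037). CD79A, part of the B cell receptor (-0.80, FDR = 0.058), and JCHAIN, the joining chain of secreted antibody (-0.38, FDR = 0.6), did not pass. PPBP, the platelet basic protein (-2.14, FDR = 0.0087), and GP9, a platelet glycoprotein (-1.18, FDR = 0.012), were called lower of 4 megakaryocyte genes (50%). Of 8 stem and progenitor genes 1 was called (12.5%, below the share over all genes). This was the transcription factor MYB (-0.87, FDR = 0.0496), and PROM1 did not pass (1.07, FDR = 0.066). Of 11 dendritic cell genes 1 was called (9.09%, below the share over all genes), IRF8 (-0.40, FDR = 0.0094). FSCN1, the actin bundler of mature dendritic cells, was not called (-0.45, FDR = 0.21) but changed by 0.91 in SF (difference -1.36, FDR = 0.023). By limma, no gene was called of 11 erythroid, 5 eosinophil, basophil and mast cell, and 11 stromal genes (an unadjusted p under 0.05 was found for 0, 0 and 1 of them, and voom called 0, 0 and 1).

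Macrophage identity genes showed no call, and without the 6 day SF library of Moon 1 was called lower. The list mean in ISF went from 9.05 ± 0.51 (SD, n = 8) at 6 days to 8.92 ± 0.41 (n = 7) at 10 days, after 3.85 ± 0.31 at 0 hours, and the change within horses ran from -0.68 (Dealings) to 0.41 (Lurie). The median log2 fold change of the 18 genes was -0.12. SPP1, osteopontin, a secreted matrix protein, ranged from 4059 (Flash) to 87675 (Moon) with a median of 44315 at 6 days and from 33105 (Dealings) to 70479 (Moon) with a median of 47511 at 10 days (0.73, FDR = 0.37). The low values at 6 days were those of Catnip, Dealings and Flash (6675, 5032 and 4059 GeTMM), and no library was that low at 10 days. The scavenger receptor CD163 ranged from 417 (Moon) to 2156 (Flash) with a median of 1223 at 6 days and from 468 (Ollie) to 1468 (Dreamer) with a median of 613 at 10 days (-0.37, FDR = 0.47). The mannose receptor MRC1 (-0.65, FDR = 0.13), APOE (0.42, FDR = 0.51) and GPNMB (0.66, FDR = 0.12) did not pass the test either.

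Genes of osteoclasts, the fused bone-resorbing relatives of macrophages, were higher in part. Of 10 tested, 3 rose and none fell (30%, against 14.5% of all genes tested), with a median of 0.70. The list mean was higher in all 7 horses. CTSK, cathepsin K, the collagenase of osteoclasts, ranged from 896 (Flash) to 9455 (Lurie) with a median of 7175 at 6 days and from 4642 (Catnip) to 18807 (Lurie) with a median of 12980.0 at 10 days (log2 fold change 1.29 ± 0.34 (SE), FDR = 0.0054), and it was higher in each horse. ITGB3, the beta 3 integrin, ranged from 5.89 (Catnip) to 50.3 (Ollie) with a median of 24.9 at 6 days and from 36.7 (Catnip) to 179.6 (Ollie) with a median of 67.7 at 10 days (log2 fold change 1.69 ± 0.38 (SE), FDR = 0.00085). NFATC1, the transcription factor of osteoclast formation, rose from 15.7 ± 3.71 GeTMM (SD, n = 8) at 6 days to 28.9 ± 11.8 GeTMM (SD, n = 7) at 10 days (0.78, FDR = 0.0019). In SF the median of the list was 0.67. ACP5, the tartrate-resistant acid phosphatase, was not called in ISF (0.64, FDR = 0.088), and its change differed between the fluids (0.64 in ISF and -0.65 in SF, difference 1.29, FDR = 0.046). Without the 6 day SF library of Moon, however, no gene of this list was called for such a difference.

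The gene with the highest fold change among those that rose in all 7 horses was CRABP2, which carries retinoic acid within the cell. It ranged from 0 (Flash) to 65.4 (Lurie) with a median of 1.09 at 6 days and from 2.35 (Moon) to 382 (Lurie) with a median of 41.9 at 10 days (log2 fold change 3.68 ± 0.46 (SE), FDR = 9.5e-08). At 6 days only Lurie was above 3 GeTMM, and at 10 days all but Moon were above 24. CAMK2N1, an inhibitor of a calcium-dependent kinase, ranged from 0.267 (Catnip) to 4.43 (Lurie) with a median of 4.10 at 6 days and from 8.26 (Moon) to 77.7 (Ollie) with a median of 24.6 at 10 days (log2 fold change 2.77 ± 0.38 (SE), FDR = 7.4e-07), and here each 10 day library was above every 6 day library. The tetraspanin CD9, which regulates fusion of macrophages, ranged from 8.05 (Dealings) to 317 (RimRun) with a median of 94.3 at 6 days and from 106 (Catnip) to 939.6 (Ollie) with a median of 345 at 10 days (log2 fold change 2.25 ± 0.39 (SE), FDR = 2.5e-05). ST8SIA5, a sialyltransferase of gangliosides (2.53, FDR = 2.3e-06), NCKAP1, of the actin-nucleating WAVE complex (2.16, FDR = 3.8e-07), COX7A1, a subunit isoform of cytochrome oxidase (2.02, FDR = 1.2e-05), MLLT11 (2.16, FDR = 0.00068), SCRN1 (2.02, FDR = 3.9e-06), the cytokine TNFSF15 (2.19, FDR = 1.2e-05) and the Wnt receptor FZD7 (1.95, FDR = 2e-05) also rose. LOX, the enzyme that crosslinks collagen, ranged from 9.54 (Catnip) to 31.9 (Ollie) with a median of 15 at 6 days and from 23.1 (Moon) to 141 (Ollie) with a median of 74.2 at 10 days (log2 fold change 1.92 ± 0.27 (SE), FDR = 8.7e-07), and CCN2, connective tissue growth factor, rose from 23.7 ± 25.7 GeTMM (SD, n = 8) at 6 days to 74.9 ± 54.1 GeTMM (SD, n = 7) at 10 days (2.07, FDR = 0.0013). ADM, the vasodilator adrenomedullin, was above 1 GeTMM at 6 days only in Catnip (5.51) and Flash (17), and at 10 days in all horses but Dreamer (0.587) and Moon (0.187), with a log2 fold change of 2.06. The neuropeptide gene CARTPT was at most 3.47 GeTMM at 6 days and reached 26.0 at 10 days in Ollie, 23.2 in Catnip and 18.3 in RimRun (2.21, FDR = 4.3e-06).

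Of 13 matrix proteases and inhibitors 1 rose and 1 fell (15.4%, against 14.5% of all genes tested). MMP12, the elastase of macrophages, ranged from 60.1 (Catnip) to 4587 (RimRun) with a median of 1016 at 6 days and from 312 (Catnip) to 7824 (RimRun) with a median of 5249 at 10 days (log2 fold change 2.01 ± 0.57 (SE), FDR = 0.01). MMP9, a gelatinase that neutrophils store and macrophages secrete, ranged from 439.8 (Flash) to 2680.4 (RimRun) with a median of 1264 at 6 days and from 971 (Catnip) to 9859 (Ollie) with a median of 3974 at 10 days (log2 fold change 1.57 ± 0.37 (SE), FDR = 0.0018). Both were higher at 10 days in all 7 horses, and MMP9 was thus the member of the secondary granule list that moved against the others. MMP1, an interstitial collagenase, fell in all 7 horses and ranged from 21.6 (Dealings) to 630.2 (Lurie) with a median of 203 at 6 days and from 18.0 (Dealings) to 120.5 (Catnip) with a median of 55.3 at 10 days (log2 fold change -2.07 ± 0.47 (SE), FDR = 0.0012). CTSL, a lysosomal cathepsin, rose from 193 ± 95.6 GeTMM (SD, n = 8) at 6 days to 558 ± 288 GeTMM (SD, n = 7) at 10 days (1.44, FDR = 0.00031), in 6 of 7 horses. Its change in SF was -0.02 (difference 1.46, FDR = 0.048), but without the 6 day SF library of Moon no lysosome gene was called for such a difference. Of 25 lysosome genes 2 were called higher and 2 lower (16%, against 14.5% of all genes tested). Those called higher were CTSL and the transcription factor MITF (0.60, FDR = 0.0093). Those called lower were ATP6V0D1, a subunit of the proton pump (-0.46, FDR = 0.0088), and the ceramidase ASAH1 (-1.40, FDR = 0.031).

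Stress genes of the endoplasmic reticulum rose in part. Of 27 genes of the unfolded protein response, 8 were called higher and none lower (29.6%, against 14.5% of all genes tested). The median was 0.29, against 0.04 in SF. TRIB3, a pseudokinase induced by this stress, ranged from 2.25 (Catnip) to 6.34 (RimRun) with a median of 4.10 at 6 days and from 2.63 (Moon) to 35.8 (RimRun) with a median of 14.5 at 10 days (log2 fold change 1.30 ± 0.33 (SE), FDR = 0.0036), and DDIT3, the transcription factor CHOP, ranged from 40.2 (Dealings) to 112 (RimRun) with a median of 81.5 at 6 days and from 58.3 (Moon) to 291 (Ollie) with a median of 169 at 10 days (log2 fold change 1.13 ± 0.25 (SE), FDR = 0.00071). Both were lower at 10 days in Moon and higher in the other 6 horses. HSPA5, the main chaperone of this compartment, ranged from 577 (Moon) to 1185 (RimRun) with a median of 739 at 6 days and from 582 (Dealings) to 2796 (Ollie) with a median of 1430.2 at 10 days (log2 fold change 0.65 ± 0.19 (SE), FDR = 0.011), and was lower at 10 days in Catnip and Dealings. DNAJB9 (0.89, FDR = 0.012), SEL1L (0.60, FDR = 0.0046), PPP1R15A (0.57, FDR = 0.014) and HSP90B1 (0.45, FDR = 0.045) rose too, and the lectin chaperone CALR did not pass (-0.12, FDR = 0.73). The list mean rose by 1.02 in Ollie and by 0.60 in Dreamer, in both with all 27 genes higher, by 0.08 in Dealings, and fell by 0.10 in Moon. Of 14 heat shock genes 3 rose and none fell (21.4%, against 14.5% of all genes tested). These were the small chaperone CRYAB (1.77, FDR = 0.00016), DNAJA4 (0.73, FDR = 0.0023) and the mitochondrial chaperone HSPA9 (0.72, FDR = 1.2e-05), while HSP90AA1 did not pass (-0.19, FDR = 0.16). HSPA9 was higher in all 7 horses, from 182 ± 39.6 GeTMM (SD, n = 8) at 6 days to 307 ± 96.9 GeTMM (SD, n = 7) at 10 days.

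Voltage-gated calcium channel subunits were low at both times. Of 17 on the list with an entry, 8 passed the filter on low values, which the 7 ISF libraries at 10 days can meet alone. Of these 8, 4 were called higher and none lower (50%, against 14.5% of all genes tested). The count therefore does not describe the whole family. CACNA1B, the pore of the N-type channel, ranged from 0.137 (Catnip) to 2.69 (Moon) with a median of 0.703 at 6 days and from 1.49 (Dreamer) to 32.9 (Ollie) with a median of 6.53 at 10 days (log2 fold change 2.22 ± 0.36 (SE), FDR = 9.1e-06). It was lower at 10 days in Moon and higher in the other 6 horses. CACNG3 (1.35, FDR = 7.2e-05), CACNA1G (1.19, FDR = 8.6e-05) and CACNA1H (0.33, FDR = 0.027) had means under 6 GeTMM at both times.

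Genes of Fc receptor signaling and the actin cytoskeleton, which serve phagocytosis and migration, fell by small steps of like size in each horse. Of 23 tested, 17 were called lower and none higher, with a median of -0.57 in ISF and -0.12 in SF (-0.04 without the 6 day SF library of Moon). The list mean fell in all 7 horses, by 0.43 to 0.62, Moon and Dealings included. ACTB, beta actin, ranged from 5906 (Moon) to 9164 (Ollie) with a median of 7798 at 6 days and from 3576 (Dreamer) to 6329.6 (Dealings) with a median of 4802 at 10 days (log2 fold change -0.73 ± 0.14 (SE), FDR = 0.00011), and the groups overlap only through Moon at 6 days and Dealings at 10 days. CFL1, cofilin, which severs actin filaments, ranged from 2451 (Moon) to 3362 (Catnip) with a median of 2898 at 6 days and from 1523 (RimRun) to 2289.9 (Dealings) with a median of 1937 at 10 days (log2 fold change -0.60 ± 0.11 (SE), FDR = 6.5e-05), without overlap. The Src family kinase FGR (-1.13, FDR = 0.0029), the actin binder CORO1A (-0.80, FDR = 0.012), the GDP dissociation inhibitor ARHGDIB (-0.76, FDR = 0.0028) and EZR, which ties actin to the membrane (-0.71, FDR = 0.0021), fell as well, and gamma actin, ACTG1, did not pass (-0.28, FDR = 0.3). Neutrophils express FGR, CORO1A and ARHGDIB strongly, and the part of the neutrophil transcripts in their fall was not tested. The 6 neutrophil precursor markers in the table (of 8 chosen) summed to 2.76 to 2393 GeTMM at 6 days and to 0.759 to 63.7 at 10 days. In Dealings and RimRun, the horses with the lowest granule means at 6 days, the Fc receptor and actin mean changed by -0.47 and -0.54. It changed by -0.59 in Catnip and -0.62 in Lurie, which had the highest primary granule means at 6 days. In Dreamer, Moon and Ollie it changed by -0.43, -0.43 and -0.56. ACTB changed by 0.40 in SF, and the difference between the fluids was -1.12, FDR = 0.002. TUBB, a beta tubulin, fell from 648 ± 90.9 GeTMM (SD, n = 8) at 6 days to 331 ± 74.1 GeTMM (SD, n = 7) at 10 days (-1.0, FDR = 2.3e-06), with every 10 day library below every 6 day library, and changed by 0.08 in SF (difference -1.08, FDR = 0.0041).

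Of 28 genes of inflammatory cytokines and NF-kappaB, 4 fell and 1 rose (17.9%, against 14.5% of all genes tested), with a median of -0.13 in ISF and 0.30 in SF. IL18, a cytokine that the inflammasome matures, ranged from 78.4 (RimRun) to 310.4 (Lurie) with a median of 149.6 at 6 days and from 25.2 (RimRun) to 84.6 (Dreamer) with a median of 45.5 at 10 days (log2 fold change -1.59 ± 0.25 (SE), FDR = 5.1e-06), and was lower in all 7 horses. NLRC4 (-1.92, FDR = 3.5e-05) and NAIP (-0.78, FDR = 0.0076), which form an inflammasome that senses bacterial proteins, and MYD88, the adaptor of most Toll-like receptors (-0.66, FDR = 0.018), also fell in each horse. RELB, of the noncanonical NF-kappaB pathway, rose (0.59, FDR = 0.022), and IL1B did not pass (-0.83, FDR = 0.063). Of this list, 5 genes were called for a different change in the 2 fluids (17.9%, against 1.85% of all genes tested). These were IL18, MYD88, TNFAIP6, CCL8 and CCL2, all with the lower change in ISF. Over all genes, 5 such calls were left without Ollie and 33 without the term for the horse. The monocyte chemokine CCL2 changed by -0.44 in ISF and 1.48 in SF (difference -1.92, FDR = 0.044), and TNFAIP6, which binds hyaluronan in inflamed joints, by -0.82 and 1.74 (difference -2.56, FDR = 0.0075). Neither was called in ISF alone.

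Over all genes, the 270 whose change differed between the fluids comprised 88 with the higher and 182 with the lower change in ISF. Lowest in FDR were GRSF1, a mitochondrial RNA-binding protein (0.72 in ISF, 0.06 in SF, difference 0.66, FDR = 0.002), TMEM200A (difference 0.94, FDR = 0.002), PARP8 (difference -1.06, FDR = 0.002) and ACTB. GRSF1 ranged from 20.4 (Catnip) to 26.1 (RimRun) with a median of 23.9 at 6 days and from 31.4 (Moon) to 50.8 (Ollie) with a median of 36.2 at 10 days, and TMEM200A ranged from 0 (Flash) to 1.35 (Ollie) with a median of 0.255 at 6 days and from 2.18 (Dreamer) to 3.76 (Lurie) with a median of 2.38 at 10 days, both without overlap between the groups. KRT20 (difference -1.32, FDR = 0.0022), the actin regulators EFHD2 (difference -0.91, FDR = 0.0025) and TPM4 (difference -0.75, FDR = 0.0041), and NAA35 (difference 0.48, FDR = 0.0036) were among the first 10 genes with a symbol. CD9 rose more in ISF than in SF (difference 1.93, FDR = 0.047), and so did CARTPT (difference 1.87, FDR = 0.032).

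Other lists of macrophage function held few calls. The shares called were 8% for mevalonate and sterol synthesis, 5.26% for lipid uptake, storage and efflux and 5.88% for NRF2 targets and iron. They were 4.65% for the respiratory chain and 9.52% for glycolysis, all below the 14.5% of all genes tested. Of 25 genes of mevalonate and sterol synthesis 1 was called lower and 1 higher, DHCR7, an enzyme of cholesterol synthesis (0.83, FDR = 0.014), while the early enzymes HMGCS1 (0.19, FDR = 0.76) and MVK (-0.11, FDR = 0.74) did not pass (list median -0.06). PPARG, the nuclear receptor that governs lipid handling in macrophages, was the only gene called of 19 for lipid uptake, storage and efflux (-0.48, FDR = 0.021), and it was lower in 5 of 7 horses. Of 17 NRF2 targets and iron genes 1 was called lower and none higher, and FTH1, ferritin heavy chain, did not pass (-0.15, FDR = 0.74). Of 43 genes of the respiratory chain 2 rose, SDHA (0.46, FDR = 0.0009) and SDHB (0.41, FDR = 0.014), both subunits of complex II, and without the 6 day SF library of Moon 7 rose. Of 21 glycolysis genes 1 rose, the glucose transporter SLC2A1 (1.18, FDR = 0.026), and 1 fell, HK3, a hexokinase of granulocytes and monocytes (-2.83, FDR = 2.3e-06). Among 22 growth factors and receptors, 22.7% were called, against 14.5% of all genes tested. CCN2, MET (1.37, FDR = 9e-05), IGF2R (0.83, FDR = 0.037) and TGFBR2 (0.52, FDR = 0.015) rose and CSF3R fell, and CSF1 did not pass (0.89, FDR = 0.23). No gene of 52 for the cytosolic ribosome or of 20 stimulated by interferon was called by limma or by voom, and none had an unadjusted p under 0.05. The medians of these lists were 0.14 and 0.07.

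**Figure D5:**
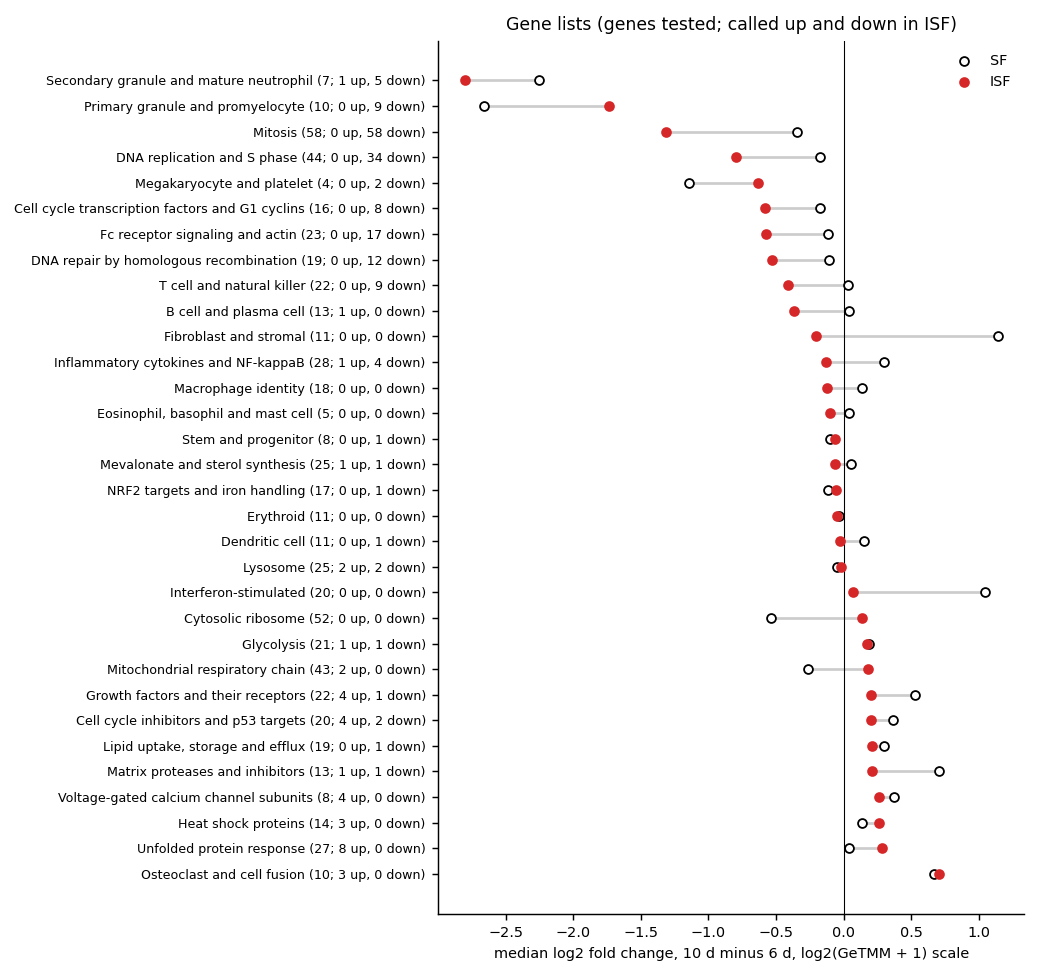
Median log2 fold change from 6 to 10 days (x axis, log2(GeTMM + 1) scale) of the 32 gene lists (y axis) in ISF (red) and SF (open circles), with the number of genes tested and of those called in ISF beside each name. The granule lists are lowest in both fluids, the mitosis list is at -1.31 in ISF and -0.35 in SF, and the osteoclast list is highest in ISF at 0.70.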

How the data were processed

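Bulk RNA-seq (stranded, paired-end) of equine marrow mononuclear cells in culture was deposited as 1 table of 30371 gene entries and 68 libraries, 15 of them compared here. The authors trimmed the reads, aligned them to EquCab3.0 with STAR 2.7.2a, counted them per Ensembl gene, and converted the counts to GeTMM (the submitters' processing notes name edgeR), so that the deposited values are of the RPKM kind, scaled by TMM factors. The table holds no counts, but whole reads were recovered from the step size of the values for 24065 of 24065 genes above 0, within 0.02 reads. The table held 0 columns of no sample, and 13157 entries without a gene symbol.

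Here values were taken as log2(GeTMM + 1), and a gene entered the tests when 7 or more libraries reached 0.5 GeTMM (14570 genes). The linear models of limma 3.58.1, run under R 4.3.3 with moderated variances that follow a trend over the level, covered all 68 libraries, with 9 groups of fluid and time and a term for the horse, and Benjamini-Hochberg FDRs were taken over all genes tested. A second contrast tested whether the change from 6 to 10 days differed between the fluids. With 1 well per horse, fluid and time, the p-values measure the spread left after the terms for group and horse, pooled over all 9 groups. This is not the spread of the change from 6 to 10 days among the 7 paired horses alone. The horses' names pair the libraries: the labels give 1 animal for both time points, and the residuals of the 2 libraries of a horse correlated with r = 0.142 to 0.539 in the 7 horses. The highest correlation of a 6 day library with the 10 day library of another horse was 0.0417 to 0.229. In Dealings both values were 0.142, so this measure does not tell its pair apart. On simulated data with 200 changed genes of 14570, the fit recovered 88% of changes of log2 1 and 99% of log2 2, and 4.59% of its calls were false. The simulated noise was drawn from the fitted model, independently for each gene and library. It holds no library that stands apart over many genes, so these shares do not give the false calls in the real data. A few genes were also tested with an exact permutation test that flips the signs of the changes of the 7 horses, adjusted over 211 genes named by rule, among which those chosen for moving the same way in all horses have the smallest p by that choice.

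The comparison and the 32 gene lists were chosen with earlier results of these data known. Genes were named by rule, as the 15 highest and 15 lowest fold changes among called genes with a symbol, a mean of at least 5 GeTMM at 6 or 10 days and the same direction in all 7 horses; per list, up to 6 called members in each direction with the largest change and up to 3 with the highest level; 27 fixed genes, of which 24 were measured; and the 10 lowest FDRs in the contrast between the fluids. Symbols shared by 2 entries were left out of the lists. Genes were counted by Ensembl model, and reads of near-identical copies, as among cathelicidins and S100 genes, may be split between entries or lost.

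The alternatives were no term for the horse, a pseudocount of 0.1, no filter and a filter of 2 GeTMM, libraries centred on their medians, library weights, fewer libraries, a minimum change, each horse left out, and, added after seeing the data, voom on the recovered reads and the removal of 1 library each of Moon and Ollie. Python 3.11.15 with numpy 2.4.6, pandas 2.3.3 and matplotlib 3.10.9 was used for tables and figures. No genome sequence was used here, so no coordinates are given. A few results are not reported here.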

Additional observations from a re-analysis of the deposited data

Results flagged for a closer look

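Each result below stood apart by a gap to the nearest library that was large for its group (Dixon's criterion), or by a test of the difference between the changes in the 2 fluids. Of 386 groups of values checked for gaps, 29 values stood apart, and chance alone gives about 1 in 20. List means and gene values are on the log2(GeTMM + 1) scale.

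The largest set was the 10 day ISF library of Moon, which was above the others for the means of mitosis (4.23), of repair by homologous recombination (2.80) and of stromal genes (2.54), and for MCM6 (6.12), PLK1 (4.36), CDC20 (4.05), TOP2A (4.98), E2F7 (2.22), FANCD2 (3.61), CENPF (3.96) and KIF20A (3.89). In the same library APOE was lower than in the others (11.7). At 6 days, Dreamer was below the other horses for the mean of mitosis (3.22) and for CDC20 (3.00), CCNB1 (4.40), TOP2A (3.83) and TPX2 (4.29). Other single values that stood apart at 6 days were those of CRABP2 (6.05) and KCNJ15 (6.07) in Lurie and TNFSF15 in Flash (3.10), which were high. CRYAB in Moon (5.60), DNMT1 in Dealings (5.17) and TNFAIP6 in Catnip (8.54) were high as well, whereas CDKN2A in Moon (1.34) and MMP1 in Dealings (4.50) were low. At 10 days, KCNJ15 (3.08) and ASAH1 (2.61) in Lurie and GP9 in RimRun (1.62) were high, and GAPT in Dealings (0.167) was low.

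The named genes below changed differently in the 2 fluids by the test of that difference, given here as the change in ISF minus that in SF. The difference was positive for CD9 (1.93), CARTPT (1.87), CTSL (1.46), ACP5 (1.29), TMEM200A (0.94), GRSF1 (0.66) and NAA35 (0.48). Of these, CTSL and ACP5 were not called by this test without the 6 day SF library of Moon. It was negative for the division and repair genes PLK1 (-1.59), CENPA (-1.42), CDKN2C (-1.30), MCM2 (-1.25), MCM5 (-1.23), EXO1 (-1.11) and MCM6 (-0.86). The same held for CEP55 (-1.41), KIF20A (-1.36), CENPF (-1.35), CDC25C (-1.32), KIF2C (-1.29), MCM3 (-1.22), POLA2 (-1.19), MCM4 (-1.05) and DNMT1 (-0.76). For the cytokine and signaling genes it was -2.63 (CCL8), -2.56 (TNFAIP6), -1.92 (CCL2), -1.24 (IL18) and -1.04 (MYD88). For genes of the cytoskeleton it was -1.36 (FSCN1), -1.32 (KRT20), -1.12 (ACTB), -1.08 (TUBB), -0.91 (EFHD2) and -0.75 (TPM4), and for KCNJ15 and PARP8 it was -1.76 and -1.06.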

How the results depend on the processing

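The removal of single ISF libraries of Moon and Ollie, and voom, were chosen after seeing the data. Of 161 genes named, 135 were called, 85 of these under all 21 alternative settings, and none of the called genes changed direction under any. A requirement of at least 1 log2 unit left 562 genes, 214 higher and 348 lower. Leaving out 1 horse gave 1416 (Ollie) to 3150 (Moon) changed genes, 628 to 1596 of them higher and 788 to 1554 lower. It gave 5 (Ollie) to 647 (Moon) genes whose change differed between the fluids, 54 to 58 mitosis, 30 to 39 replication, 5 (Lurie) to 9 primary granule, 4 to 5 secondary granule and 13 to 20 Fc receptor and actin genes called lower. Without the term for the horse, that is without the pairing, 1533 genes were called (1531 of them shared with the paired fit), 4 primary granule genes fell and 33 genes differed between the fluids. In the 14 paired libraries alone, 1635 genes were called and 0 primary granule genes. Of these genes, 1292 were shared with the main fit, which is 61.0% of its 2117 calls. The genes that differed between the fluids numbered 535 with library weights, 169 without the filter and 828 without the 10 day ISF library of Moon. Without the 6 day SF library of Moon, 3153 genes were called and 1546 were higher. The causes were not tested. With the libraries centred, the calls split into 1031 higher and 973 lower. On the scale used, a pseudocount of 1 shrinks the changes of low genes: the median of the T cell list was -1.02 with a pseudocount of 0.1 and -1.20 with voom. Values below about 0.1 GeTMM rest on 1 or a few reads.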

Other observations

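Some lists with few or no calls in ISF had a different median in SF over the same days, in part through 1 library, that of Moon in SF at 6 days. The 52 cytosolic ribosome genes had a median log2 fold change of 0.14 in ISF and -0.53 in SF, and 44 of them had an unadjusted p under 0.05 for the difference, although neither limma nor voom called any at an FDR under 0.05. Their mean change in SF was -2.60 in Moon and -0.51 to 0.22 in the other 6 horses, and without that library the SF median was -0.26, with 28 genes at such a p and no call. The 43 respiratory chain genes had medians of 0.18 in ISF and -0.26 in SF, with 14 at an unadjusted p under 0.05 and no call. Their mean change in SF was -1.65 in Moon and -0.16 to 0.22 in the others, and without that library the SF median was 0.03, with 4 genes at such a p. For the 20 interferon-stimulated genes the medians were 0.07 in ISF and 1.05 in SF (0.83 without that library), with an unadjusted p under 0.05 for 6 (2 without it) and no call. The 11 stromal genes had medians of -0.20 and 1.14 (0.94 without it), with an unadjusted p under 0.05 for 3 (0 without it) and no call.

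The horses also differed in how far their libraries moved. The root mean square change over all genes tested ran from 0.462 log2 units in Dreamer to 0.717 in Dealings, with 0.574 in Moon. Of the genes called lower, 86.7% were lower at 10 days in Moon and 91.6% to 98.8% in each of the other 6 horses. Of those called higher, 80.6% were higher in Moon and 91.5% to 97.4% in the others. These shares describe libraries that the calls were made on.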
